A study of Mus musculus with 10 samples.

Results

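The genotypes were compared in back-skin epidermal keratinocytes of mice whose skin had been rubbed with water only, the control treatment of a study of barrier disruption by an acetone and olive oil mixture. The comparison took every library labelled as water, which gave 4 of the 10 libraries, 2 from control mice and 2 from knockout mice. Control mice were labelled wild type. Knockout mice were labelled Gsdma1KO/KO;Gsdma3fx/fx;K14-Cre, that is, homozygous for a Gsdma1 knockout allele and for a floxed Gsdma3 that Cre recombinase removes. K14-Cre is active in cells that express keratin 14, the basal keratinocytes of epidermis and hair follicle, and T cells, Langerhans cells and dermal cells do not express that keratin. All 4 groups of the study were rubbed 2 times a day for 3 days and collected on day 5, and the mixture replaced water in the other 6 libraries (3 per genotype). The labels used here give no age or sex, do not say whether control mice carried the floxed allele or Cre, and do not tie libraries to single animals. The p-values below therefore measure the spread between libraries, which may be partly technical.

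Gasdermins are cytosolic proteins that a protease cuts to release a fragment, and the fragment forms pores in membranes. Pores in the cell membrane let out cytokines of the IL-1 family and can kill the cell by pyroptosis. The mouse has 3 gasdermin A genes side by side on chromosome 11, and they are expressed in the upper hair follicle and in epidermis. Mouse epidermis also houses dendritic epidermal T cells, a resident gamma delta T cell population, and Langerhans cells, its resident antigen-presenting cells.

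The water libraries held 19822078 and 19024657 reads in control and 21812292 and 15914663 in knockout. Values are normalised read counts. The keratinocyte label fitted the markers. Krt5 and Krt14, the keratins of basal cells, stood at 121786 and 99088 normalised counts per kilobase of exon in control, and Krt10, the keratin of the spinous layer, at 52543. All 4 libraries had 0 reads of the Y-linked genes Ddx3y, Eif2s3y, Uty and Kdm5d. Xist and Tsix, the other sex-linked genes sought, were not listed in all 4 files and could not be read. The pair of control libraries differed more than any other pair: 2178 genes (14.1% of those tested) differed by 1 or more on the log2 scale between control 1 and control 2, against 689 (4.46%) between the knockout libraries. Between a control and a knockout library the count ran from 1120 to 1932. The first principal component (54.3% of the variance) put control 2 at 63.2 and the other 3 libraries between -25.7 and -17.1. Named genes are therefore given in each library, and most gene lists against each control as well as against both. Comparing 2 libraries with 2 by exact permutation cannot give a two-sided p below 0.333.

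The targeted genes were measured first. Gsdma3 (chromosome 11, 98626360 to 98638226, GRCm38) measured 61.9 and 281 normalised counts in the control libraries and 2.65 and 0 in the knockout libraries. Both control libraries lay far above both knockout libraries, although they differed from each other. The knockout libraries together held 3 reads and the controls 367. After scaling, the knockout level was 0.00842 of control (95% exact interval 0.00173 to 0.0248, counting error only). On the log2(value + 1) scale the difference was -6.12 ± 0.92 (SE, limma adjusted p = 0.904). It was -5.04 against control 1 and -7.21 against control 2.

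Gsdma (chromosome 11, 98664351 to 98677708), which the labels call Gsdma1, still had reads in the knockout. It measured 198 and 523 in control and 170 and 169 in knockout. Control 1 stood close to the knockout libraries and control 2 well above them, so the controls did not agree on the size of the difference (-0.22 against control 1, -1.62 against control 2). Its log2 difference from both was -0.92 ± 0.43. A count summed over all exons cannot show which of them is missing. Of the 50-base words in Gsdma transcripts, 3.10% also occur in Gsdma3 and 5.79% in Gsdma2. Gsdma2, between both genes, had 11 reads in the control libraries together and 0 in the knockout libraries, a level too low to test.

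The other gasdermins were low and mostly lower in the knockout. Among the 6 tested gasdermins, Gsdma3 and Gsdma included, 5 were without overlap downward (17.2% of all genes) and 0 upward. The median over the 6 was -0.31 against control 1 and -1.44 against control 2, so the controls did not agree on the size. Under olive oil and acetone 4 of the 6 had a positive difference. Gsdmd, the gasdermin cut by inflammatory caspases, measured 42.9 and 99.6 in control and 36.2 and 29.0 in knockout. Gsdme, which caspase 3 cuts, measured 282 and 192 in control and 152 and 119 in knockout, with both controls above both knockout libraries (log2 difference -0.78 ± 0.30). For Gsdmc the controls disagreed: it measured 72.4 in control 1 and 270 in control 2, on either side of the knockout libraries at 189 and 210.

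**Figure D1:**
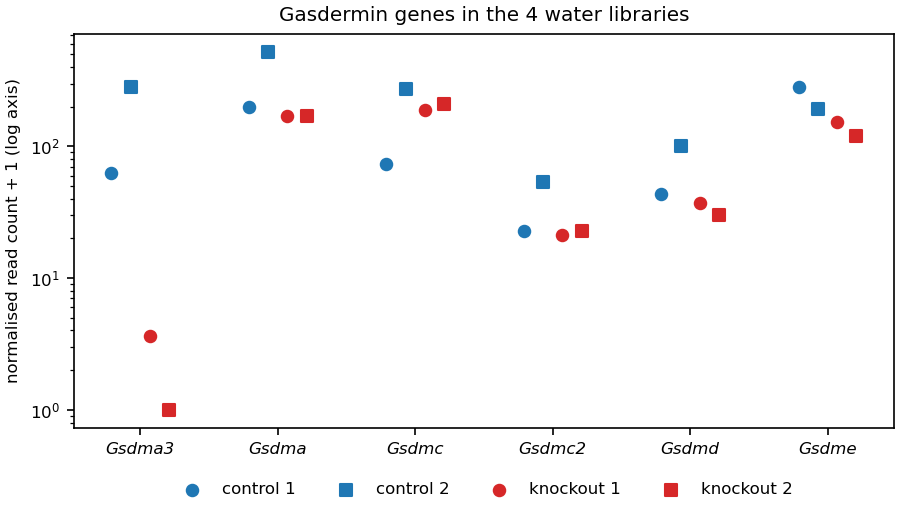
Normalised read count plus 1 (log axis) of each tested gasdermin gene in control 1 and 2 (blue) and knockout 1 and 2 (red) under water. Gsdma3 is at 2.65 and 0 in the knockout libraries, while Gsdma is at 170 and 169, close to control 1 at 198.

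No gene passed the test between the genotypes. Of 15438 genes tested, limma called 0 (0.0% in either direction, lowest adjusted p = 0.904). At an unadjusted p under 0.05 there were 823 genes (5.33%), 315 higher in the knockout (2.04%) and 508 lower (3.29%). The edgeR test called 0 (lowest adjusted p = 0.857). DESeq2 called 6 genes of the 14540 to which it gave an adjusted p, 1 higher (0.00688%) and 5 lower (0.0344%). In simulated data limma recovered 72 of 97 genes changed by 2 on the log2 scale and 19 of 97 changed by 1. The simulation drew each gene independently and held no library set apart as control 2 was. These shares may therefore overstate what the test could recover here. In these libraries limma did not call Gsdma3 itself.

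The count moved with single libraries. With control 1 left out, limma called 2974 genes (1765 higher, 1209 lower). With control 2 left out it called 1049 (362 higher, 687 lower). In each of these fits the lone control is assumed to vary as little as the knockout pair. Without knockout 1 the count was 10 and without knockout 2 it was 13.

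Genes on the same side of both controls were counted, as a description with no test. In 5398 genes (35.0%) both knockout libraries lay on the same side of both control libraries, 2750 higher (17.8%) and 2648 lower (17.2%). With the libraries scaled to equal totals that split became 2037 higher and 3407 lower. A gap of 1 or more on the log2 scale between the nearest libraries of the groups was seen in 32 higher genes (0.207%) and 89 lower genes (0.576%). The controls were within 1.5-fold of each other in 66 of the 89 lower genes and 18 of the 32 higher genes. With a pseudocount of 10 in place of 1 the counts were 3 higher and 19 lower.

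**Figure D2:**
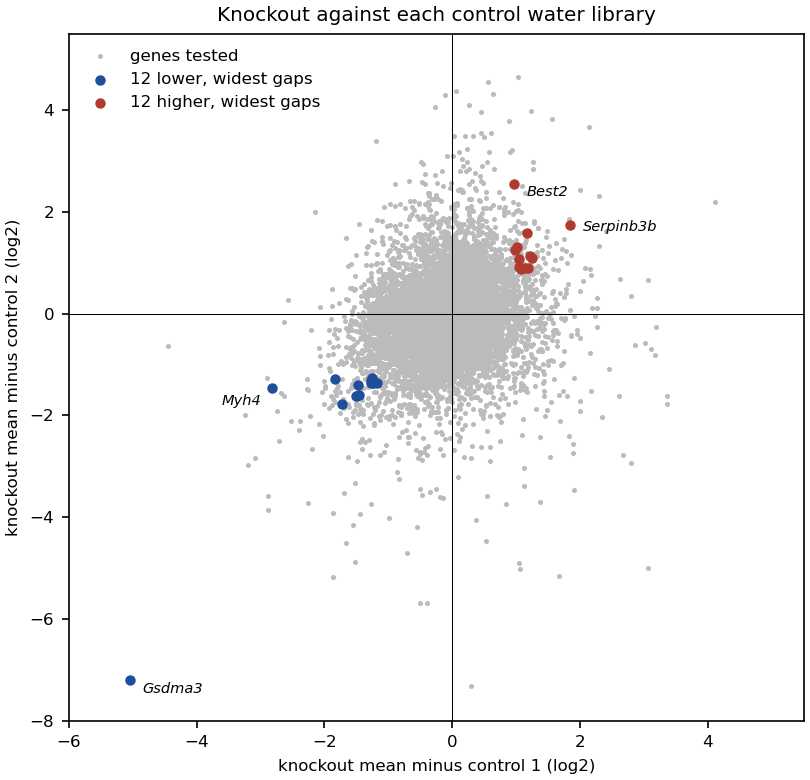
Each tested gene by the log2 difference of the knockout mean from control 1 (x axis) and from control 2 (y axis), with the 12 lower (blue) and 12 higher (red) genes of widest gap. Gsdma3 lies at -5.04 and -7.21, and the cloud of all genes is taller than it is wide.

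After Gsdma3, the widest gaps downward are given first for genes known from lymphocytes. Xcl1 (chromosome 1, 164931644 to 164935527), a chemokine made by activated T and natural killer cells, measured 591 and 655 in control and 221 and 210 in knockout (log2 difference -1.53 ± 0.21, limma adjusted p = 0.904). DESeq2 called it (adjusted p = 5.18e-04). The libraries of each genotype agreed closely and the groups lay far apart. Ccl5, another T cell chemokine, measured 75.3 and 81.9 in control and 26.5 and 25.3 in knockout. Hcst, the signalling adaptor of the receptor NKG2D on these cells, measured 126 and 137 in control and 53.8 and 51.9 in knockout. Both control libraries agreed on both genes. In bulk samples like these, fewer cells of a type and less RNA per cell cannot be told apart.

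Ptafr (chromosome 4, 132564067 to 132582683), the receptor for platelet-activating factor, measured 237 and 246 in control and 87.3 and 57.9 in knockout (log2 difference -1.75 ± 0.31, DESeq2 adjusted p = 0.0159). Pstpip1, an adaptor of blood cells that binds pyrin, measured 355 and 356 in control and 157 and 140 in knockout (-1.26 ± 0.23). Traf3ip3, a membrane adaptor of lymphocytes, measured 128 and 136 in control and 51.2 and 53.1 in knockout. In these genes the controls were nearly equal and the groups did not overlap. Lyz2, the lysozyme of myeloid cells, measured 255 and 174 in control and 75.0 and 66.3 in knockout (-1.57 ± 0.31). Alas2, the first enzyme of heme synthesis in red cell precursors, measured 53.3 and 60.5 in control and 22.9 and 22.9 in knockout. Crmp1, a phosphoprotein best known in neurons, measured 107 and 101 in control and 44.1 and 32.6 in knockout. Myh4, a fast myosin of skeletal muscle, was lower in both knockout libraries (8.82 and 13.3), but its controls disagreed (82.9 and 31.6).

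The other lower genes that DESeq2 called were of mixed agreement. Edn2, the vasoactive peptide endothelin 2, measured 563 and 480 in control and 166 and 241 in knockout, and both controls agreed (log2 difference -1.37 ± 0.26, DESeq2 adjusted p = 0.0288). Clec4e, a myeloid receptor for microbial glycolipids, measured 19.1 in control 1 and 198 in control 2, against 7.94 and 2.41 in knockout (DESeq2 adjusted p = 0.0111). Gzmc, a granzyme of cytotoxic lymphocytes, measured 284 and 904 in control and 159 and 116 in knockout (DESeq2 adjusted p = 0.0111). For Clec4e and Gzmc the side agreed between the controls and the size did not.

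Upward, the widest gap belonged to Serpinb3b (chromosome 1, 107153940 to 107278361). This gene encodes a protease inhibitor of stressed and inflamed squamous epithelium, and it measured 50.5 and 54.0 in control and 176 and 192 in knockout. Its log2 difference was 1.80 ± 0.29, DESeq2 called it (adjusted p = 0.0159), and it was nearly as large against control 1 (1.84) as against control 2 (1.75). Of the 50-base words in its transcripts 7.61% also occur in Serpinb3c and 5.24% in Serpinb3a. Homer2, a synaptic and signalling scaffold, measured 625 and 687 in control and 1185 and 1414 in knockout (0.98 ± 0.19). Stx19, a syntaxin of epithelial cells, measured 53.3 and 56.8 in control and 116 and 134 in knockout. Both controls agreed closely in each of these genes.

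Several enzymes and transporters were among the 12 higher genes. Gldc, which breaks down glycine in mitochondria, measured 102 and 76.3 in control and 201 and 262 in knockout (log2 difference 1.37 ± 0.30). Abcg4, a sterol transporter, measured 65.7 and 72.6 in control and 150 and 164 in knockout. Aadacl2, a predicted lipid hydrolase, measured 101 and 83.8 in control and 191 and 209 in knockout. In these genes both knockout libraries lay above both controls. Fancf, a DNA crosslink repair gene, Muc2, a gel-forming mucin, and Best2, an anion channel, were low. Fancf measured 23.8 and 23.3 in control and 45.0 and 55.5 in knockout. Muc2 measured 27.6 and 22.3 in control and 48.5 and 66.3 in knockout. In Best2 the controls disagreed (49.5 and 15.8), with the knockout libraries at 86.5 and 111. The other 3 of the 12 were Skint genes, described next.

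**Figure D3:**
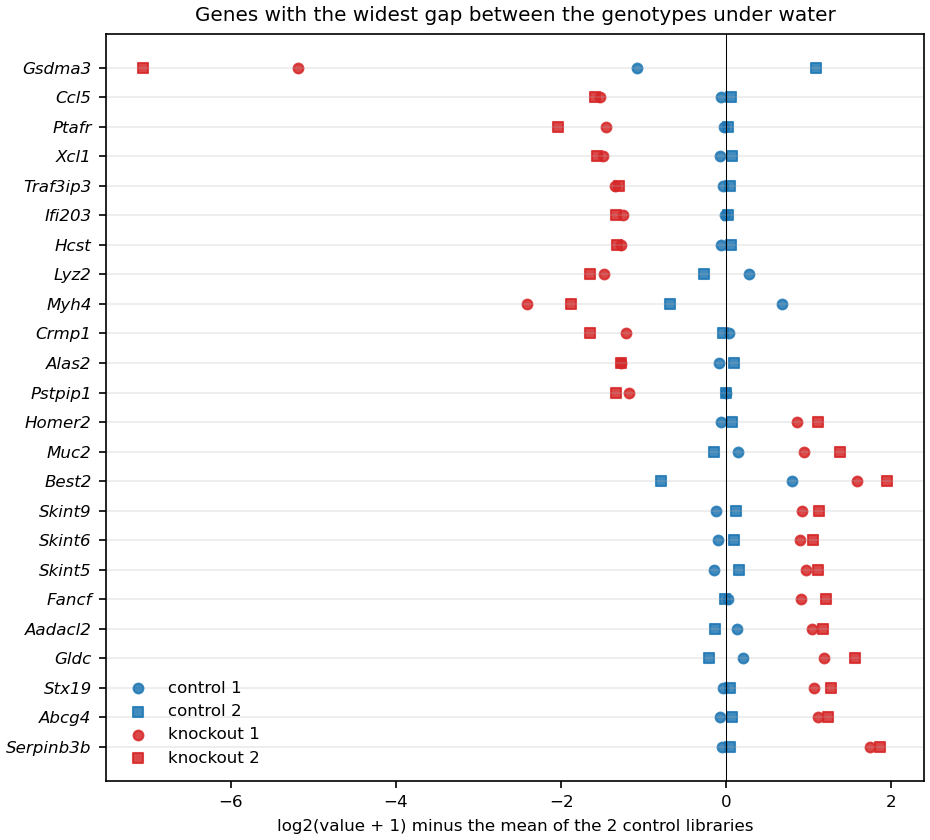
The 12 lower and 12 higher genes of widest gap, each library drawn as log2(value + 1) minus the mean of the 2 control libraries (control blue, knockout red, circle replicate 1, square replicate 2). The controls sit close together in most rows and apart in Gsdma3, Myh4 and Best2.

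Skint genes encode membrane proteins of the immunoglobulin superfamily made by keratinocytes and thymic epithelium, and Skint1 is required for the development of dendritic epidermal T cells. All 11 tested Skint genes had a positive difference, and 9 were without overlap between the genotypes (17.8% of all genes were so upward). The median log2 difference was 0.67, 0.99 against control 1 and 0.47 against control 2, beside 0.0037 over all genes tested, and 0 of the 11 were called. Skint5 measured 461 and 567 in control and 995 and 1107 in knockout (1.04 ± 0.20). Skint6 measured 621 and 713 in control and 1238 and 1378 in knockout (0.97 ± 0.18). Skint9 measured 459 and 543 in control and 943 and 1086 in knockout (1.02 ± 0.20). The knockout libraries agreed, and both controls lay well below them in all 3 genes. Skint1 itself, added after its values were seen, measured 648 and 516 in control and 757 and 938 in knockout. In Skint2 and Skint7 the genotypes overlapped.

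Skint5 and Skint6 are close copies, and their upstream sequences are shown because both are among the 12 higher genes. RefSeq (GRCm38.p6) gives the 250 bases before each start as follows, 5′ to 3′ on the strand of the gene, Skint5 at chr4:113999504-113999753 and Skint6 at chr4:113286974-113287223, both on the minus strand.
Skint5: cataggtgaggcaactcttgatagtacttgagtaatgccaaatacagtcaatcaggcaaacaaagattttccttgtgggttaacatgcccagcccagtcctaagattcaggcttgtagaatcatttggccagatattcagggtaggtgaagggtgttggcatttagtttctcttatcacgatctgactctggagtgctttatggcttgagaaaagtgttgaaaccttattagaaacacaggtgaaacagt
Skint6: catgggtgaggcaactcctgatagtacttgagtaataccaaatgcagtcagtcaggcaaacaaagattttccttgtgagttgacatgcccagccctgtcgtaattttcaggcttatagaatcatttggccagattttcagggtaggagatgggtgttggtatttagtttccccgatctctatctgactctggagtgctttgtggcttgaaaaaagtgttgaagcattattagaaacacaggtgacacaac
These stretches were identical at 222 of 250 positions (88.8%). The same stretch of Skint5 aligned to that of Skint9 with 47.8% identity and to that of Skint1 with 52.3%. Only 3.97% of the 50-base words in Skint5 transcripts also occur in Skint6, and 0 in Skint9, so shared reads could affect a small part of these counts.

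The T cells whose development needs Skint1 were measured through their own genes, and here the controls disagreed in size. All 23 tested genes of dendritic epidermal T cells had a negative difference and 15 were without overlap (17.2% of all genes were so downward). Limma called 0 of them. Xcl1 and Gzmc, given above, are members of this list, and DESeq2 called both. The median was -0.68, but -1.08 against control 1 and -0.29 against control 2. The summed level of the list was 70301 in control 1 and 37266 in control 2, against 35585 and 32219 in knockout, so control 2 lay near the knockout libraries. Ctsw, a cathepsin of cytotoxic lymphocytes, measured 2169 and 1795 in control and 1107 and 945 in knockout (log2 difference -0.95 ± 0.19), and both controls agreed. Il2rb, the interleukin 2 receptor beta chain and the list's highest gene, did not separate the genotypes: it measured 13659 in control 1 and 4763 in control 2, and 6614 and 5982 in knockout. Trdc, the constant part of the delta receptor chain, was likewise high in control 1 only (5398, against 2656 in control 2 and 2754 and 2525 in knockout). Trdc was chosen after its values were seen.

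Interferon-stimulated genes, which antiviral cytokines induce, had mostly negative differences, with none called. Of 30 tested, 27 had a negative difference (49.5% of all genes did), 18 were without overlap downward (17.2% of all genes) and 1 upward, and 11 overlapped. The median was -0.82, made up of -0.46 against control 1 and -1.23 against control 2, so the controls agreed on the side and not on the size. Isg15, a ubiquitin-like modifier, measured 390 and 407 in control and 214 and 177 in knockout (log2 difference -1.03 ± 0.23). In Isg15 the controls were nearly equal. Oas1a, a sensor of double-stranded RNA, measured 62.9 and 131 in control and 29.1 and 18.1 in knockout (-1.94 ± 0.49). Of the 50-base words in Oas1a transcripts 57.6% also occur in Oas1g, so its count is uncertain. Control 2 was the highest library for the list as a whole, with a summed level of 10105 against 6320.5 in control 1 and 5996 and 5281 in knockout.

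PYHIN genes form a cluster on chromosome 1 and encode nuclear and cytosolic DNA sensors, many of them induced by interferon. Of 12 tested, 10 had a negative difference and 0 were called. Without overlap were 9 downward (17.2% of all genes) and 1 upward (17.8% of all genes). The median was -0.77, and -0.60 and -1.07 against control 1 and control 2. Ifi203 measured 164 and 168 in control and 68.8 and 65.1 in knockout (-1.29 ± 0.29). Ifi207 measured 127 and 122 in control and 54.7 and 48.3 in knockout (-1.26 ± 0.31). Mndal, chosen with its values known, measured 201 and 250 in control and 115 and 85.6 in knockout (-1.17). In all 3 the gap between the genotypes was wider than the difference within either pair. The one PYHIN gene without overlap upward was Ifi202b, at 12836 and 7290 in control and 16173 and 13245 in knockout. Ifi202b was also the most abundant of the list, so the summed level of the list did not follow the direction of most members.

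The promoters of 4 of these genes are shown because they share letters of the interferon-stimulated response element, a promoter element of many such genes. The search took GAAA, any 2 bases and GAAA again, on either strand, within 250 bases before to 50 after each RefSeq start. It was found in 12 of 21 interferon-stimulated genes with a window (57.1%), in 9 of 12 PYHIN genes (75%) and in 1 of 11 Skint genes (9.09%), against 3.99% of all 27025 windows. The stretches below (GRCm38.p6, 5′ to 3′, all of genes on the minus strand) carry the match in capitals, and in Isg15 and Oas1a the capitals join overlapping matches, 3 and 2 in number. They are Isg15 at chr4:156200845-156200944, Oas1a at chr5:120907526-120907599, Ifi207 at chr1:173741811-173741910 and Mndal at chr1:173880188-173880283.
Isg15: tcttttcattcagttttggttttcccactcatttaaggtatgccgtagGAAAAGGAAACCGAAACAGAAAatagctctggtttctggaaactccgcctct
Oas1a: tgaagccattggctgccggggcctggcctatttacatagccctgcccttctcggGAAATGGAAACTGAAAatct
Ifi207: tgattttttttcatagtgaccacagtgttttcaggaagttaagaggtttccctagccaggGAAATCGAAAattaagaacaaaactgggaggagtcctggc
Mndal: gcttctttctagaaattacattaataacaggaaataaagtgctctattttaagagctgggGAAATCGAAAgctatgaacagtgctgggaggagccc
A match is a description of these letters and was not tested as a binding site.

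**Figure D4:**
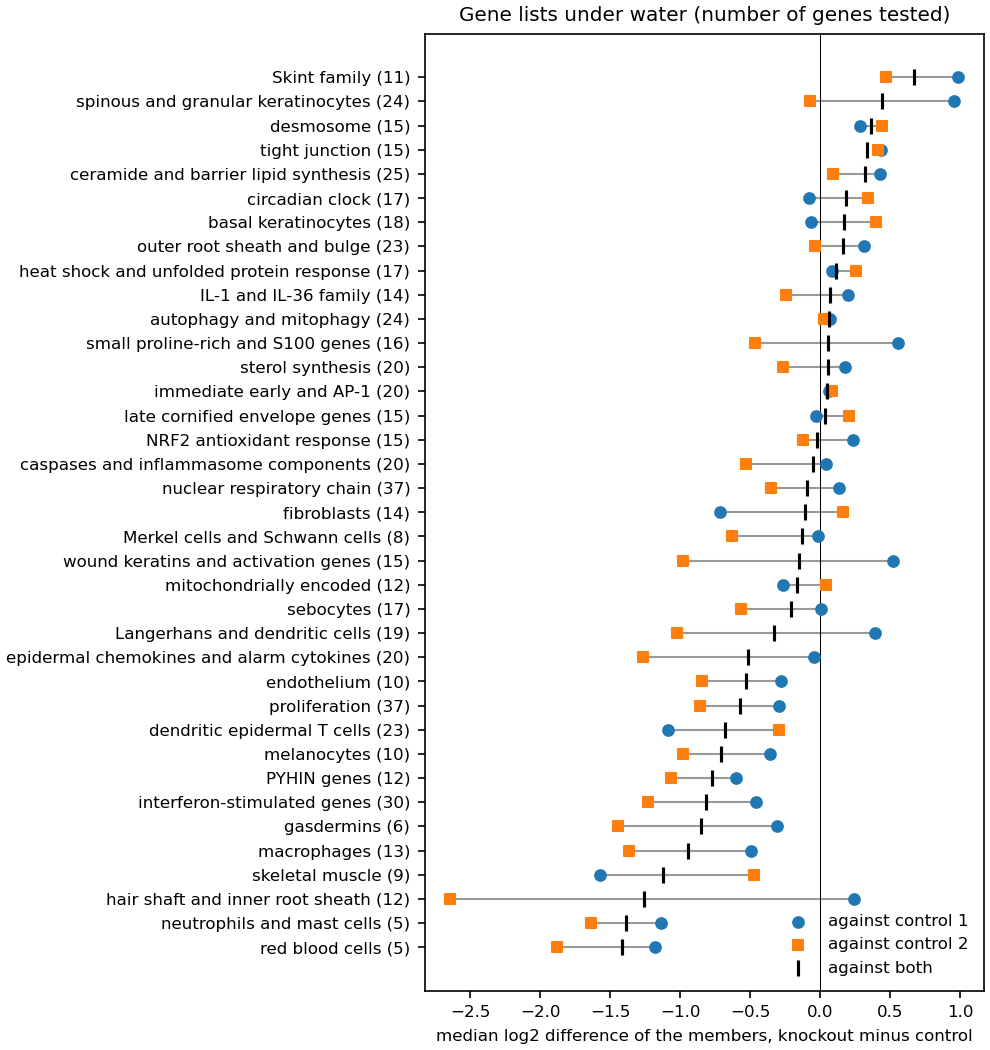
Median log2 difference of each gene list with at least 5 genes tested, knockout minus control, against control 1 (blue circle), against control 2 (orange square) and against both (black bar). The symbols lie on the same side of 0 and close together for desmosome and tight junction genes, and far apart for the hair genes.

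Markers of other cell types were read next, and the higher control library was not the same in each list. Macrophage genes had a negative difference in 13 of 13 tested members, 9 without overlap (17.2% of all genes were so downward). The median was -0.49 against control 1 and -1.36 against control 2. Their summed level was 53095 and 109536 in control and 62124 and 60416 in knockout, so by sum control 1 lay below the knockout libraries. Apoe, the list's highest gene and one also made by other skin cells, carried most of that sum (51400 and 107898 in control, 61483 and 59756 in knockout). Fcgr2b, an inhibitory Fc receptor, measured 336 and 295 in control and 143 and 187 in knockout (log2 difference -0.94 ± 0.25), and both controls agreed.

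Langerhans and dendritic cell genes divided the controls instead. Their median was 0.39 against control 1 and -1.03 against control 2, and their summed level was 27856 and 63659 in control and 37522 and 36466 in knockout. Of 19 tested, 4 were without overlap, all lower in the knockout (17.2% of all genes were so downward). Fcer1g, an Fc receptor chain shared by myeloid and T cells, was one of these (1378 and 1405 in control, 807 and 672 in knockout, log2 difference -0.92 ± 0.18), and Lyz2 was another. Cst3, cystatin C and the list's highest gene, overlapped between the genotypes.

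Most genes of red blood cells and muscle, and 4 of 5 tested genes of neutrophils and mast cells, were without overlap downward (17.2% of all genes), with none called. All 5 red blood cell genes were without overlap, with a summed level of 3291 and 6454 in control and 1176 and 2522 in knockout. Hbb-bs, a beta globin, measured 1860 and 3568 in control and 630 and 1483 in knockout. Of 9 skeletal muscle genes 8 were without overlap, and their summed level was 1115 and 489 in control and 346 and 297 in knockout. Acta1, the muscle actin, measured 352 and 131 in control and 97.9 and 68.8 in knockout. Tpsb2, a mast cell tryptase, measured 13.3 and 17.7 in control and 2.65 and 2.41 in knockout, a few reads per library. Vim, the vimentin of fibroblasts, immune cells and melanocytes, measured 4921 and 5116 in control and 2930 and 2414 in knockout (-0.92 ± 0.18), while the fibroblast list as a whole had a median of -0.71 against control 1 and 0.16 against control 2. The files listed 7 of 14 neutrophil and mast cell markers, 11 of 14 muscle, 5 of 7 red blood cell and 15 of 16 macrophage markers, and no listed one was at 0 in all 4 libraries. The part of these cells in the immune, interferon and PYHIN results was not tested.

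Proliferation genes had mostly negative differences, with none called. Of 37 tested, 34 had a negative difference (49.5% of all genes did) and 23 were without overlap downward (17.2% of all genes), 0 upward, while 14 overlapped. The median was -0.58, and -0.29 and -0.86 against control 1 and control 2. Under olive oil and acetone 35 of the 37 had a positive difference (median 0.27). Cenpa, the histone variant of centromeres, measured 1389 and 1259 in control and 869 and 689 in knockout (log2 difference -0.77 ± 0.20). Mki67, the proliferation antigen Ki-67, measured 1778 and 2536 in control and 1281 and 1285 in knockout (-0.73 ± 0.21). Both controls were higher than both knockout libraries in each gene.

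Genes of cell junctions had mostly positive differences, with none called, and the medians were positive against each control. Tight junctions seal the granular layer. Of 15 tight junction genes 13 had a positive difference and 10 were without overlap upward (17.8% of all genes), 0 downward (17.2% of all genes). Their median was 0.33, and 0.44 and 0.41 against control 1 and control 2. Cldn4, the claudin 4 of the junction strand, measured 9627 and 10870 in control and 18585 and 15817 in knockout (log2 difference 0.75 ± 0.20). Ocln, occludin, measured 967 and 710 in control and 1409 and 1434 in knockout (0.78 ± 0.21). Both genes were higher in each knockout library than in each control library, and neither was called.

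Desmosomes join keratinocytes to each other and anchor their keratin filaments. Of 15 desmosome genes 14 had a positive difference and 12 were without overlap upward (17.8% of all genes), 0 downward (17.2% of all genes). Their median was 0.36, and 0.29 and 0.44 against control 1 and control 2. Dsg1a, a desmosomal cadherin of the upper layers, measured 10293 and 10221 in control and 15398 and 18893 in knockout (0.73 ± 0.20). Evpl, envoplakin, measured 6869 and 5990 in control and 8832 and 8636 in knockout (0.45 ± 0.18). The controls were close to each other in both genes.

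Of 25 ceramide and barrier lipid genes 19 had a positive difference and 6 a negative one, with a median of 0.32, and 0.42 and 0.09 against control 1 and control 2. Without overlap were 11 upward (17.8% of all genes) and 5 downward (17.2% of all genes). Aloxe3, a lipoxygenase that prepares ceramides for the cornified envelope, measured 656 and 446 in control and 1096 and 1010 in knockout (log2 difference 0.96 ± 0.23). Cers3, the ceramide synthase of very long chains, measured 1024 and 916 in control and 1567 and 1569 in knockout (0.69 ± 0.17). Both controls agreed on the side of each. Of those downward, Cers4, another ceramide synthase, was the one of lowest p, a choice made with its values known (1804 and 1552 in control, 1126 and 984 in knockout).

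Differentiation genes mostly did not separate the genotypes, and the controls disagreed. Spinous and granular keratinocyte genes had a median of 0.96 against control 1 and -0.07 against control 2. Of 24 tested, 7 were without overlap upward (17.8% of all genes) and 1 downward (17.2% of all genes). Krt10 measured 97838 and 124316 in control and 148121 and 157307 in knockout, and Tgm1, a transglutaminase of the cornified envelope, measured 251 and 559 in control and 834 and 662 in knockout. The median of late cornified envelope genes was -0.03 against control 1 and 0.21 against control 2. That of small proline-rich and S100 genes was 0.55 and -0.47, and that of basal keratinocyte genes -0.06 and 0.40. In these lists 2 of 15, 1 of 16 and 2 of 18 members were without overlap upward and 0 downward. Krt5, the most abundant basal gene, measured 291631 and 243497 in control and 267140 and 250069 in knockout, and the genotypes overlapped.

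Genes of the inflammasome pathway, which acts with gasdermins, showed no common direction. Caspases and inflammasome components had 10 positive and 10 negative differences among 20 tested. Without overlap were 4 upward (17.8% of all genes) and 6 downward (17.2% of all genes). The median was 0.04 against control 1 and -0.53 against control 2. Nlrp10, a sensor protein of epidermis, measured 956 and 967 in control and 1382 and 1269 in knockout (log2 difference 0.46 ± 0.17). Naip5, a sensor of bacterial flagellin, measured 24.8 and 41.9 in control and 15.9 and 6.03 in knockout. IL-1 and IL-36 family genes had 1 of 14 without overlap in each direction. Il33, an alarm cytokine of the family, measured 813 and 1381 in control and 797 and 690 in knockout.

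Chemokine genes had a median of -0.04 against control 1 and -1.26 against control 2. Spp1, osteopontin, measured 61.0 in control 1 and 637 in control 2, against 29.1 and 14.5 in knockout, so the controls agreed on the side of its log2 difference (-3.20 ± 0.99) and not on the size. Tslp, an alarm cytokine of keratinocytes chosen with its values known, measured 2457 in control 1 and 250 in control 2, against 3151 and 2542 in knockout. Control 2 was the library apart in both genes.

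Hair genes showed the same library apart. Krt71, Krt27 and Krt25, keratins of the inner root sheath chosen with their values known, measured 3306, 1297 and 1863 in control 2. In the other 3 libraries Krt71 measured at most 2.65, Krt27 at most 6.18 and Krt25 at most 10.9. The list of hair shaft and inner sheath genes had a median of 0.24 against control 1 and -2.64 against control 2. Of the 12 tested members 3 were without overlap, 1 higher (17.8% of all genes) and 2 lower (17.2% of all genes). Krt83, the member of lowest p, measured 35.2 and 197 in control and 11.5 and 16.9 in knockout. Msx2 measured 200 and 262 in control and 178 and 129 in knockout. In both genes the controls lay above the knockout libraries, and for Krt83 they did not agree on the size. Gata3, the most abundant tested member, overlapped between the genotypes. Krt71 and Krt27 did not reach the filter on low values.

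The neighbours of the targeted genes were read because the knockout alleles lie on this stretch of chromosome 11. Of 55 genes tested within 1 Mb, without the 3 gasdermins, 8 were without overlap upward and 8 downward, shares not above the 17.8% and 17.2% of all genes, 0 were called and 0 had a gap of 1 or more. Their median log2 difference was -0.01. Those upward were Epop, Erbb2, Grb7, Rapgefl1, Wipf2, Krt10, Gm11940 and A830036E02Rik. Those downward were Plxdc1, Cdc6, Ikzf3, Pip4k2b, Nr1d1, Top2a, Ccr7 and Cisd3. Erbb2, a growth factor receptor, measured 4077 and 3504 in control and 4682 and 5409 in knockout. Ikzf3, a lymphocyte transcription factor, measured 312 and 169 in control and 168 and 116 in knockout.

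The named genes were then read in the 6 libraries rubbed with olive oil and acetone, whose values did not enter the gap by which the 24 genes were ranked. The lists and members were chosen with earlier results of these libraries known. In that fit limma called 1 gene higher and 1 lower in the knockout (0.00641% each). Gsdma3 was the lower one (log2 difference -6.22 ± 0.55, adjusted p = 0.0264). The call was lost without any 1 of 5 of the 6 libraries. All other 11 of the 12 genes lower under water had a positive difference there, 0 of them called. The median over the 12 was 0.71. Of the 89 genes with a gap of 1 or more downward, 83 could be read, and 74 of these had a positive difference. Of the 32 with such a gap upward, 20 could be read, 10 with a positive and 10 with a negative difference. Among the 15000 genes tested under both treatments 50.2% were positive there and 49.8% negative. Of those 15000 genes 7.83% were without overlap upward under the mixture and 9.33% downward. Among the 24 named genes of widest gap, 1 was without overlap upward (Lyz2) and 3 downward (Gsdma3, Gldc and Best2).

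Xcl1 measured 204, 108 and 117 in control and 176, 190 and 331 in knockout under olive oil and acetone. The groups overlapped, and the difference was 0.70 ± 0.34. Pstpip1 measured 256, 183 and 150 in control and 232, 352 and 474 in knockout (0.82 ± 0.31). Both genes were thus lower in each knockout library under water, and not under the mixture. The water libraries and those under the mixture also differed in Y-linked transcripts, as given below. Under the mixture 29 of 30 interferon-stimulated genes had a positive difference (median 0.99), as did 20 of 23 genes of dendritic epidermal T cells (median 0.16). Markers of other cell types had positive differences there too: 19 of 19 for Langerhans and dendritic cells (median 1.09), 12 of 13 for macrophages (0.47), 10 of 10 for endothelium (1.61), 10 of 10 for melanocytes (0.82) and 5 of 5 for red blood cells (0.98). Their part in these differences was not tested.

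The difference between the treatments was tested with an interaction term over all 10 libraries. Limma called 0 of 15958 genes (0.0%, lowest adjusted p = 0.163), and 1897 (11.9%) had an unadjusted p under 0.05. Of the 12 lower genes 11 had an unadjusted p under 0.05, among them Xcl1 (interaction -2.24) and Ifi203 (-1.72). Limma called 0 of the 12 (lowest adjusted p = 0.356). Since these genes were chosen for their values under water, that count is a description. Gsdma3, the 12th, had an interaction of 0.09.

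The 12 genes higher under water were divided under olive oil and acetone, 5 with a positive and 7 with a negative difference and 0 called. Serpinb3b had a positive difference under both treatments (0.64 ± 0.51 under the mixture). Skint5 had a negative one under the mixture (-0.85 ± 0.42), where it measured 354, 331 and 618 in control and 131, 425 and 222 in knockout, and the Skint list was split there, with 5 of 11 positive. Tight junction genes had a positive difference in 3 of 15 and desmosome genes in 5 of 15. The water libraries had 0 reads of 4 Y-linked genes, while the libraries under the mixture held 238 to 2336 normalised counts of each. The treatment and the difference in Y-linked transcripts cannot be told apart in the interaction. The same holds wherever values under water are set beside those under the mixture.

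**Figure D5:**
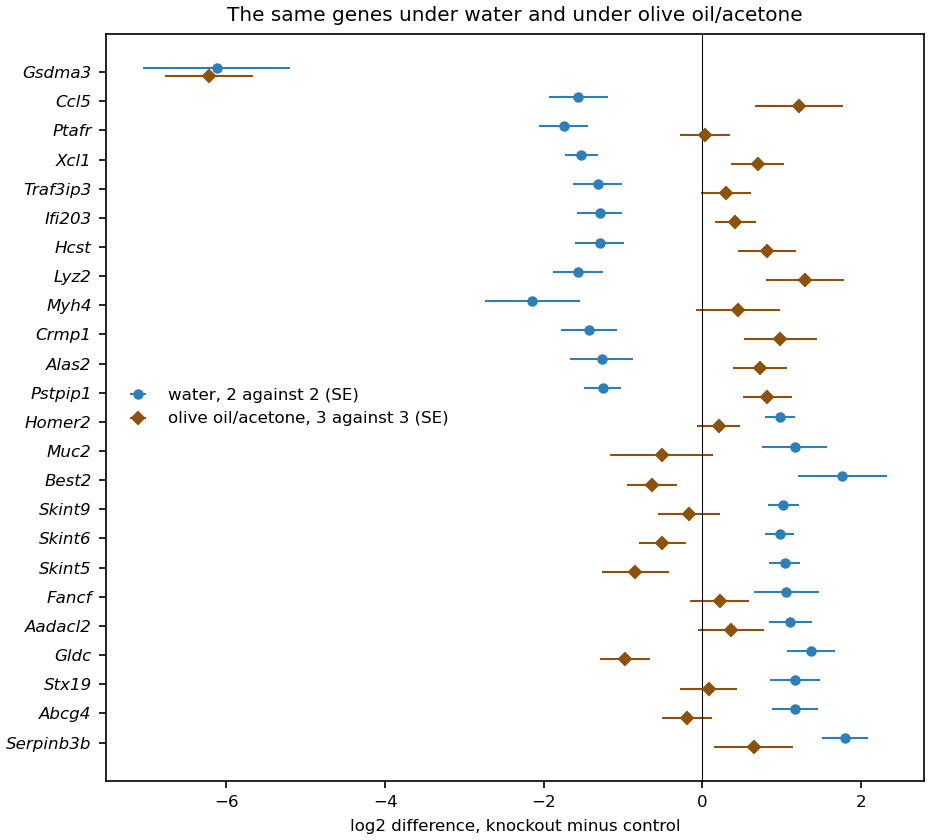
Log2 difference between knockout and control, with its standard error, for the same 24 genes under water (blue circles, 2 against 2 libraries) and under olive oil and acetone (brown diamonds, 3 against 3). Gsdma3 has like values under both (-6.12 and -6.22), and the other 11 lower genes lie at or right of 0 under the mixture.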

How the data were processed

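RNA of trypsin-released back-skin epidermal keratinocytes was sequenced in 10 libraries. The deposited values are a normalised read signal per gene, in a separate file for each library. The reads, per the submitters' processing notes, went through Trimmomatic 0.38, featureCounts 2.0.0 and DESeq2 1.26.0 on GRCm38 (mm10). The sources used here do not give the aligner, the annotation release or strandedness. Values in a file were whole multiples of 1 read's worth (100%, tolerance 0.1 read), which recovered whole reads for the count tests. Genes came from the 17916 listed in all 4 water files (the knockout files list 67 more). All identifiers matched GENCODE vM21.

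The 4 libraries were rescaled by median of ratios, and limma 3.58.1 tested log2(value + 1) of the 15438 genes that reached 10 in 2 or more of them (trended eBayes, two-sided, Benjamini-Hochberg, called under 0.05). This scale understates changes of low genes. EdgeR 4.0.16 and DESeq2 1.42.0 ran on recovered reads. On simulated data with 15097 genes, limma made 2 false calls and DESeq2 9.

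Members and gene lists were chosen with earlier results of these data known. Named genes were the gasdermin A genes, those called by any tool, and the 12 of widest gap in each direction (mean of 50 or more, no predicted genes). Added to these were, for each list, the 2 of lowest p and, for cell types, the most abundant, and non-overlapping neighbours. Some other genes were chosen with their values known, and not every gene under this rule is printed. Controls and knockouts share replicate numbers, but same-numbered libraries did not deviate together (correlation 0.03 over 15438 genes), so no block was used.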

Additional observations from a re-analysis of the deposited data

Results flagged for a closer look

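Among the 12 genes of widest gap in each direction, 3 had no overlap between the genotypes under either treatment and lay in opposite orders. Some other named genes did so too, among them Gsta4 (interaction -3.60) and Igfbp3 (2.48), whose gaps under water were narrower. Lyz2 was lower in both knockout libraries under water, and under olive oil and acetone it measured 94.5, 62.1 and 115 in control and 478, 180 and 118 in knockout. The interaction was -2.87 (limma, unadjusted p = 0.00229, adjusted p = 0.356). Gldc was higher in both knockout libraries under water and measured 87.5, 101 and 157 in control and 49.4, 73.0 and 49.0 in knockout under the mixture (interaction 2.33, unadjusted p = 0.000406, adjusted p = 0.356). Best2 was likewise higher under water and measured 55.7, 62.1 and 40.2 in control and 38.3, 32.0 and 29.2 in knockout under the mixture (interaction 2.38, unadjusted p = 0.00329, adjusted p = 0.356). None of these differences passed the limma test over all genes. The treatment and the difference in Y-linked transcripts cannot be told apart in them.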

How the results depend on the processing

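The limma count of 0 called genes held with a pseudocount of 0.5 or 10, no filter or a filter of 50, values as deposited, equal library totals, all 10 libraries in 1 model, voom and edgeR. It was 6 with DESeq2, and ran from 10 to 2974 with 1 water library left out. Adding the replicate number as a block gave 0 called genes and changed no call of a named gene. The number of genes with a gap of 1 or more was 3 higher and 19 lower with a pseudocount of 10, and 5 higher and 30 lower with a filter of 50. Leaving out 1 library, chosen as an alternative after seeing the data, moved the count of named genes called under olive oil and acetone between 0 and 1.

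With equal totals the median of immediate early genes became -0.0211 and that of autophagy genes -0.0111. With 1 water library left out, some list medians crossed 0. Their ranges were -0.24 to 0.23 for IL-1 and IL-36 genes, -0.0654 to 0.41 for basal and -0.0694 to 0.95 for spinous and granular keratinocytes, -0.14 to 0.21 for late cornified envelope genes, -0.46 to 0.37 for small proline-rich and S100 genes, and -0.26 to 0.17 for sterol synthesis. They were -2.64 to 0.19 for hair shaft, -0.0295 to 0.31 for outer root sheath, -1.02 to 0.39 for Langerhans and dendritic cells, -0.12 to 0.23 for NRF2, -0.0820 to 0.34 for clock and -0.27 to 0.0495 for mitochondrially encoded genes. Among named genes Cdh5 (-5.24 to 0.0317), Dct (-0.98 to 0.15), Lce1m (-0.0308 to 0.62), Ndufa2 (-0.68 to 0.0163) and Ndufb7 (-0.66 to 0.00228) did so. The cause was not tested.

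With 2 libraries per group, differences of 1 on the log2 scale were mostly missed in simulated data that held no library set apart. In the real libraries limma did not call even Gsdma3, at -6.12. A missed threshold does not show that values did not differ.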

Other observations

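Further lists are given with their members without overlap, beside 17.8% of all genes upward and 17.2% downward. Circadian clock genes had a median of -0.08 against control 1 and 0.34 against control 2, and 4 of 17 were higher and 4 lower in the knockout without overlap. Cry1, a repressor of the clock, measured 1592 and 875 in control and 2078 and 1771 in knockout, and Bhlhe41, another clock repressor, 141 and 248 in control and 85.6 and 91.7 in knockout. Of 20 immediate early genes 5 were higher and 2 lower without overlap. Egr3, a transcription factor of this group, measured 2009 and 2129 in control and 3366 and 2883 in knockout (log2 difference 0.59 ± 0.17), and both controls agreed. Fos, another member, went the other way, at 20401 and 25604 in control and 15856 and 17906 in knockout (-0.44 ± 0.22). Both controls lay above both knockout libraries in Fos. Wound keratins and activation genes had 6 positive and 9 negative differences among 15 tested, and 3 were higher and 1 lower without overlap. Their median was 0.52 against control 1 and -0.98 against control 2, so the controls disagreed. Ereg, an EGF receptor ligand of this list, measured 383 and 491 in control and 768 and 778 in knockout (0.83 ± 0.21). Serpinb3b, given above, belongs to the same list. None of these genes was called by limma.

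Sebocyte genes had 6 of 17 lower and 3 higher without overlap, with a median of 0.00 against control 1 and -0.56 against control 2. Plin2, the coat protein of lipid droplets, measured 965 and 1586 in control and 631 and 718 in knockout (log2 difference -0.88 ± 0.26). Prdm1, a regulator of epidermal and sebaceous differentiation, measured 379 and 433 in control and 650 and 573 in knockout (0.59 ± 0.20). Melanocyte genes had 3 of 10 lower and 1 higher without overlap, with Ednrb, an endothelin receptor, at 77.2 and 74.5 in control and 37.9 and 35.0 in knockout. Of 37 nuclear respiratory chain genes only 1 was without overlap, which was lower in the knockout, with a median of 0.13 against control 1 and -0.35 against control 2.

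Outer root sheath and bulge genes had 4 of 23 higher without overlap and 0 lower. Plet1, a surface protein of the upper hair follicle, measured 11129 and 7558 in control and 16385 and 12831 in knockout (0.66 ± 0.25). Heat shock and unfolded protein response genes had 5 of 17 higher and 4 lower without overlap, with Hspa1a, an inducible chaperone, at 17704 and 15466 in control and 26999 and 20898 in knockout. The NRF2 list had 2 of 15 in each direction, and Gsta4, a glutathione transferase, measured 33.3 and 138 in control and 15.9 and 20.5 in knockout. For Gsta4 the controls agreed on the side and not on the size. Gsta2, another glutathione transferase, went the other way, at 100 and 136 in control and 206 and 165 in knockout (0.66 ± 0.29).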
